A study of Mus musculus with 6 samples.

Results

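The 8 genes described here encode proteins of the acellular membranes of the inner ear and of the epithelium that supports them. They are Tecta, Tectb, Ceacam16, Otog, Otogl, Otoa, Epyc and Fbxo2, chosen by gene symbol from the 17607 genes of the deposited table. All 8 were in the table and all 8 were among the 15882 genes tested. RNA was sequenced from the auditory nerve dissected out of the cochlea of CBA/CaJ mice, an inbred strain. The young group held 3 mice aged 2 months and the old group 3 mice aged 2.5 years, with no treatment or transgene named in the labels. Tissue from both cochleas of a mouse was pooled, so each library is 1 mouse. The labels name the tissue as isolated auditory nerve. Most of the 8 genes are known from the epithelium of the cochlea and not from its nerve, and Fbxo2 is also known from neurons of the brain.

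The tectorial membrane is a gel that lies over the sensory hair cells of the cochlea and couples them to sound-driven motion. It is built of collagen fibrils in a matrix of glycoproteins that the neighbouring epithelium secretes. Alpha-tectorin (Tecta) and beta-tectorin (Tectb) are zona pellucida domain proteins of its striated sheet matrix, and Ceacam16 is a secreted protein of the same matrix. Otogelin (Otog) and otogelin-like (Otogl) are mucin-like proteins of the tectorial membrane and of the gels of the vestibular organs. Otoancorin (Otoa) sits at the surface of the interdental cells of the spiral limbus, where it holds the membrane to the tissue. Epiphycan (Epyc) is a small leucine-rich proteoglycan found in cartilage and in supporting cells of the cochlea. Fbxo2 is an F-box protein that binds sugar chains of glycoproteins for ubiquitination, and it is abundant in cochlear supporting cells together with its partner Skp1a.

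In the mm10 build, with the strand from the deposited table, Tecta lies on chromosome 9 from 42329619 to 42399929 (minus strand) and Tectb on chromosome 19 from 55180885 to 55196313 (plus strand). Ceacam16 is on chromosome 7 from 19852097 to 19861299 (minus), Otog on chromosome 7 from 46240987 to 46311434 (plus) and Otoa on chromosome 7 from 121083438 to 121163089 (plus). Otogl is on chromosome 10 from 107762310 to 107912134 (minus), Epyc on chromosome 10 from 97644068 to 97681900 (plus) and Fbxo2 on chromosome 4 from 148160668 to 148166417 (plus). All are protein-coding in GENCODE. The 3 genes of chromosome 7 and the 2 of chromosome 10 are not neighbours of each other. Ceacam16 overlaps the gene Gm19345 on the other strand, and the 3' end of Epyc overlaps the long noncoding RNA gene Gm10754 on the other strand. No source used here gives the strand setting of the libraries or of the counting, so reads in these overlaps cannot be told apart. Gm19345 had 4.59% to 6.63% and Gm10754 had 1.77% to 2.72% of the normalised count of Ceacam16 and Epyc in the same library. Gm10754 itself stood at 130 to 191 in young and 256 to 465 in old libraries and rose (log2 difference 1.09, limma adjusted p = 0.0200), while Gm19345 did not pass (0.11, limma adjusted p = 0.743).

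Sequence before the RefSeq transcription start (GRCm38.p6, the assembly of mm10) was at hand for 6 of the 8 genes. It is shown for Epyc and Fbxo2, which rose together, and for the 2 tectorins, which did not move together. Each line gives 200 bases, from 250 to 51 bases before the start nearest to the deposited one, read 5′ to 3′ on the strand of the gene. Capitals mark matches on either strand to any of 4 motifs, and no match overlapped another. The GATA motif was searched as AGATAA. The SOX motif was searched as ACAAAG. The GC box was searched as GGGCGG, and the CCAAT box by the letters of its name.
Epyc, chr10:97643818-97644017, plus strand: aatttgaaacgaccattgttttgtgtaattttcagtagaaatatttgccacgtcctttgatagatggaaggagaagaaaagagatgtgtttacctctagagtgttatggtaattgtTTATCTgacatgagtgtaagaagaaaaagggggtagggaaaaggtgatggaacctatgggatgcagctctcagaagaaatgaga
Fbxo2, chr4:148160418-148160617, plus strand: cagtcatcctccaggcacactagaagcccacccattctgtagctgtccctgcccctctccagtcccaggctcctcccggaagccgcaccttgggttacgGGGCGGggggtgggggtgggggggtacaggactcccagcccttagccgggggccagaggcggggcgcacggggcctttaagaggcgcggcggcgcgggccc
Tecta, chr9:42399998-42400197, minus strand: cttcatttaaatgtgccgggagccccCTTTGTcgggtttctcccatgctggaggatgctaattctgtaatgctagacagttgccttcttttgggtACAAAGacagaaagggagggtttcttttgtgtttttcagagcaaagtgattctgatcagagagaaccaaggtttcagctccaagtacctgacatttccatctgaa
Tectb, chr19:55180476-55180675, plus strand: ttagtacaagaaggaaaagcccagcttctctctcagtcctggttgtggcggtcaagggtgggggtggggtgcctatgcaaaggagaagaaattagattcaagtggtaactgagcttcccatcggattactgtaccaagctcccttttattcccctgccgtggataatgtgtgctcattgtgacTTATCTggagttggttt
The Fbxo2 window had a GC content of 71.5% with 13 CpG dinucleotides and the Epyc window one of 37.5% with 2, against a median of 51.5% with 4 over all 32851 promoter windows of this length. Epyc and Tectb each held 1 match to the GATA motif, which 8.42% of all windows hold. Tecta held 2 matches to the SOX motif, which 13.6% of windows hold, and Fbxo2 held 1 to the GC box, which 24.6% hold. The CCAAT box, present in 28.4% of windows, was in none of the 4. A match describes the letters only.

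Epyc and Fbxo2 rose in old nerves, and the other 6 genes did not pass the test. Values are normalised read counts, that is, reads divided by 1 size factor per library. Each difference is the old mean minus the young mean of log2(value + 1), from limma fitted over all tested genes, with p-values adjusted by Benjamini-Hochberg and a threshold of 0.05. Of all tested genes 34.6% passed (15.9% higher and 18.7% lower), against 2 of the 8 here (both higher). The median log2 difference was 0.59 over the 8 genes and 0.00 over all tested genes. Groups that did not overlap were seen in 51.8% of tested genes (25.5% with old above young and 26.3% with old below), and here in Epyc and Fbxo2 (above) and in Tecta (below). The other call rules used below passed 34.1% of genes with edgeR, 39.1% with DESeq2, 35.5% by the FDR of the authors' deposited table and 22.9% in limma with trends in transcript length and GC content removed. In bulk tissue, more cells of a type and more RNA per cell cannot be told apart. For a single value, an exact permutation test with 3 mice a group cannot go below p = 0.1.

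**Figure D1:**
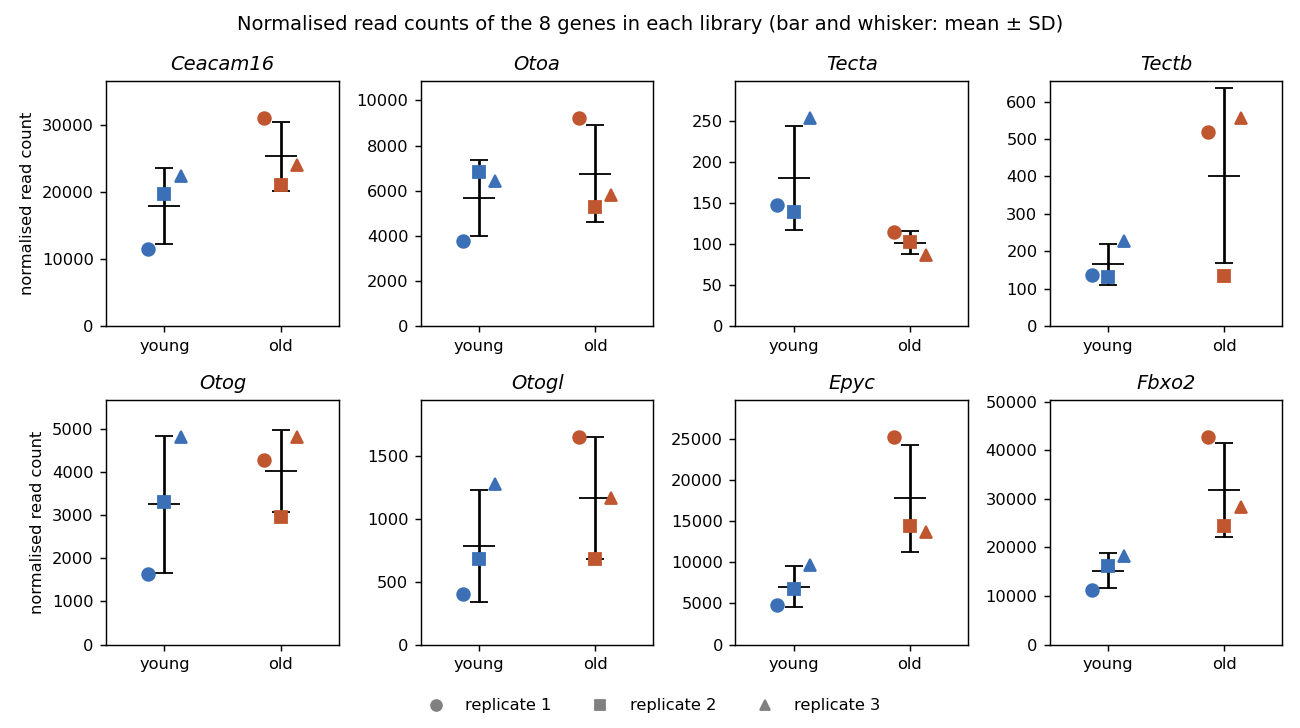
Normalised read count (vertical axis, linear from 0) of each gene in the 3 young (blue) and 3 old (orange) libraries, with replicate number as symbol and the group mean ± SD in black. All old libraries lie above all young ones in Epyc and Fbxo2 and below them in Tecta, and the groups overlap in the other panels.

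Epyc stood at 4765, 6698 and 9695 in young 1, 2 and 3 and at 25262, 14460 and 13663 in old 1, 2 and 3. Every old library was above every young one, and old 1 was the highest by a wide margin. The mean rose 2.52-fold, from 7053 ± 2484 to 17795 ± 6479 (SD, n = 3 each; log2 difference 1.34 ± 0.31 SE, 95% confidence interval 0.61 to 2.07, limma adjusted p = 0.0171). Without young 2 the adjusted p was 0.0593 at a log2 difference of 1.33. Removing those length and GC trends from each library gave a log2 difference of 0.97 and an adjusted p of 0.0505.

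Fbxo2 stood at 11278, 16164 and 18184 in young 1, 2 and 3 and at 42777, 24423 and 28310 in old 1, 2 and 3. Here too the groups did not overlap and old 1 was the highest. The mean went from 15209 ± 3551 to 31837 ± 9672 (SD, n = 3 each), a 2.09-fold rise (log2 difference 1.05 ± 0.25 SE, 95% confidence interval 0.47 to 1.63, limma adjusted p = 0.0176). The adjusted p was 0.0529 without young 2, and removal of the 2 trends left the log2 difference at 1.05 (adjusted p = 0.0292). The Fbxo2 transcript is short, at 1288 nt. It falls in the tenth of tested genes with the shortest transcripts, whose median log2 difference was 0.31.

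Tecta was the only one of the 8 with a lower mean in old nerves. Its normalised counts were 148, 140 and 253 across young 1 to 3 and 115, 102 and 87.0 across old 1 to 3. Every old library lay below every young one, and young 3 stood far above the other two young libraries. The means were 180 ± 63.4 and 102 ± 14.1 (log2 difference -0.78 ± 0.26 SE, 95% confidence interval -1.38 to -0.17), with a limma adjusted p of 0.0542 that missed the threshold. The adjusted p was 0.0509 with edgeR and 0.0210 with DESeq2 on the recovered reads, and the authors' deposited table gives a 1.77-fold fall with an FDR of 0.0232. At 7338 nt the transcript is long, and the tenth of tested genes with the longest transcripts had a median log2 difference of -0.28. After removal of the 2 trends the value was -0.44 (limma adjusted p = 0.270).

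Tectb had about the same normalised counts as Tecta in young nerves, with 136, 131 and 228 in young 1, 2 and 3. In old nerves it stood at 518 in old 1 and 555 in old 3, and at 133 in old 2. Old 2 thus lay among the young libraries while the other two lay above all of them. The means were 165 ± 54.6 and 402 ± 234, with a log2 difference of 1.07 ± 0.54 SE that did not pass (95% confidence interval -0.21 to 2.35, limma adjusted p = 0.164). Leaving out 1 old library moved the log2 difference in either direction. It was 1.74 without old 2 and passed (limma adjusted p = 0.0141), and it was 0.76 without old 1 and 0.71 without old 3 (limma adjusted p = 0.385 and 0.362). With all libraries it passed with DESeq2 on the recovered reads (adjusted p = 0.0208) and in the authors' deposited table (2.44-fold higher, FDR 0.0226), but not with edgeR (adjusted p = 0.0935).

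Ceacam16 was the most abundant of the matrix genes. It stood at 11545, 19660 and 22442 in young 1, 2 and 3 and at 30987, 20988 and 24012 in old 1, 2 and 3. Old 1 and old 3 were above all young libraries, and old 2 was between young 2 and young 3. The means were 17882 ± 5662 and 25329 ± 5128, and the log2 difference of 0.54 ± 0.26 SE did not pass (95% confidence interval -0.07 to 1.15, limma adjusted p = 0.146). Without young 1 it was 0.25 (limma adjusted p = 0.334). The authors' deposited table gives 1.42-fold higher with an FDR of 0.0916.

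Otog stood at 1643, 3300 and 4815 in young 1, 2 and 3 and at 4290, 2957 and 4810 in old 1, 2 and 3. Young 3 matched the highest old library, old 3, and young 1 was the lowest of all. Its log2 difference was 0.41 ± 0.38 SE (95% confidence interval -0.48 to 1.29, limma adjusted p = 0.429), and it was -0.02 without young 1. Its relative Otogl stood at 405, 677 and 1274 in young 1, 2 and 3 and at 1650, 679 and 1167 in old 1, 2 and 3. Old 1 was above every young library, and the other two old libraries lay between young 2 and young 3. The log2 difference was 0.63 ± 0.46 SE (95% confidence interval -0.44 to 1.70, limma adjusted p = 0.310) and 0.24 without young 1. Both transcripts are long (10043 and 8763 nt), and after removal of the 2 trends the log2 differences were 1.02 for Otog and 0.82 for Otogl, neither past the threshold (limma adjusted p = 0.0851 and 0.222).

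Otoa stood at 3756, 6843 and 6451 in young 1, 2 and 3 and at 9204, 5260 and 5803 in old 1, 2 and 3. Old 1 was above every other library, and the other two old libraries lay below young 2 and young 3. The means were 5683 ± 1680 and 6756 ± 2137, with a log2 difference of 0.25 ± 0.28 SE (95% confidence interval -0.41 to 0.91, limma adjusted p = 0.511). The value was -0.02 without young 1 and 0.01 without old 1.

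**Figure D2:**
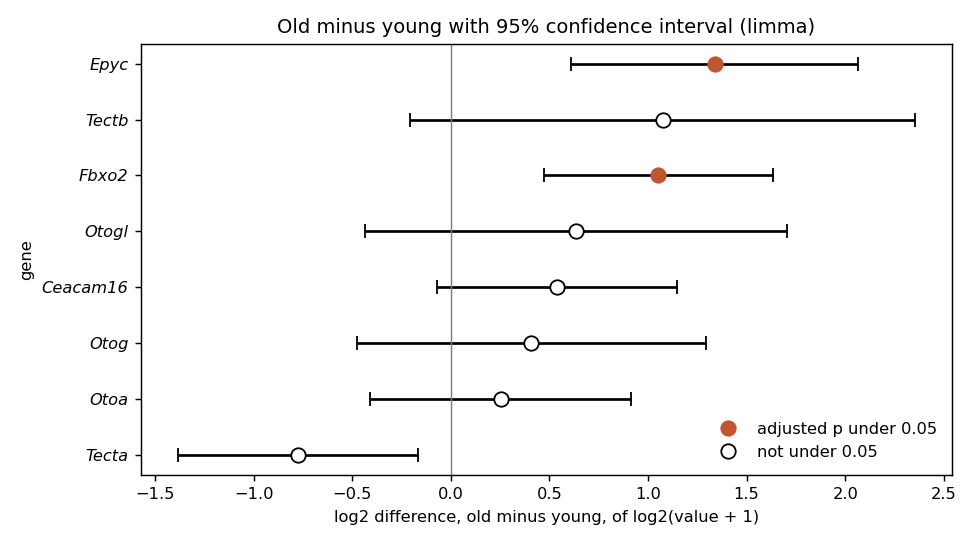
Log2 difference, old minus young (horizontal axis, log2 units), of each gene with its 95% confidence interval from limma; filled points have an adjusted p under 0.05. The filled points are Epyc at 1.34 and Fbxo2 at 1.05, and Tectb at 1.07 has the widest interval, from -0.21 to 2.35.

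The levels of the 8 genes spanned a wide range when compared per kilobase of the longest coding transcript. In young nerves the mean normalised count per kilobase was 11808 ± 2757 for Fbxo2 and 10937 ± 3463 for Ceacam16 (SD, n = 3), which differed by less than their spread. By the mean over all 6 libraries, young and old, these 2 genes were above 99.7% and 99.5% of the 14896 tested genes with a known length. In young nerves Epyc followed at 2778 ± 978, Otoa at 1506 ± 445 and Otog at 324 ± 158. Otogl at 89.6 ± 50.7 and Tectb at 60.6 ± 20.0 differed by less than their spread, and Tecta was the lowest at 24.6 ± 8.65. In old nerves the values per kilobase were 24718 ± 7509 for Fbxo2, 15492 ± 3137 for Ceacam16, 7009 ± 2552 for Epyc, 1791 ± 567 for Otoa and 400 ± 95.2 for Otog. Tectb at 148 ± 85.8 and Otogl at 133 ± 55.4 stood within their spread, and Tecta was again the lowest at 13.8 ± 1.92.

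Within each age group most of the genes ranked the libraries alike. Young 1 was the lowest young library for 6 of the 8 genes (Otoa, Otog, Otogl, Ceacam16, Epyc and Fbxo2), as it was for 41.6% of all tested genes. Young 3 was the highest young library for 7, all but Otoa, against 30.6% of tested genes. Among old libraries old 1 was the highest for 6 (Tecta, Otoa, Otogl, Ceacam16, Epyc and Fbxo2; 33.5% of tested genes) and old 2 the lowest for 6 (Tectb, Otoa, Otog, Otogl, Ceacam16 and Fbxo2; 31.2% of tested genes). The ratio of the highest to the lowest young library was 3.14 for Otogl and 2.93 for Otog, and 1.61 to 2.03 for the others. Among old libraries it was 4.18 for Tectb, 2.43 for Otogl and 1.32 to 1.85 for the rest. The SD of log2(value + 1) over young libraries was larger than in 86.4% to 96.8% of tested genes for each of the 8. Over old libraries it was larger than in 59.2% of tested genes for Tecta, 73.5% for Ceacam16 and 98.5% for Tectb, with the other 5 between 82.0% and 94.0%.

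**Figure D3:**
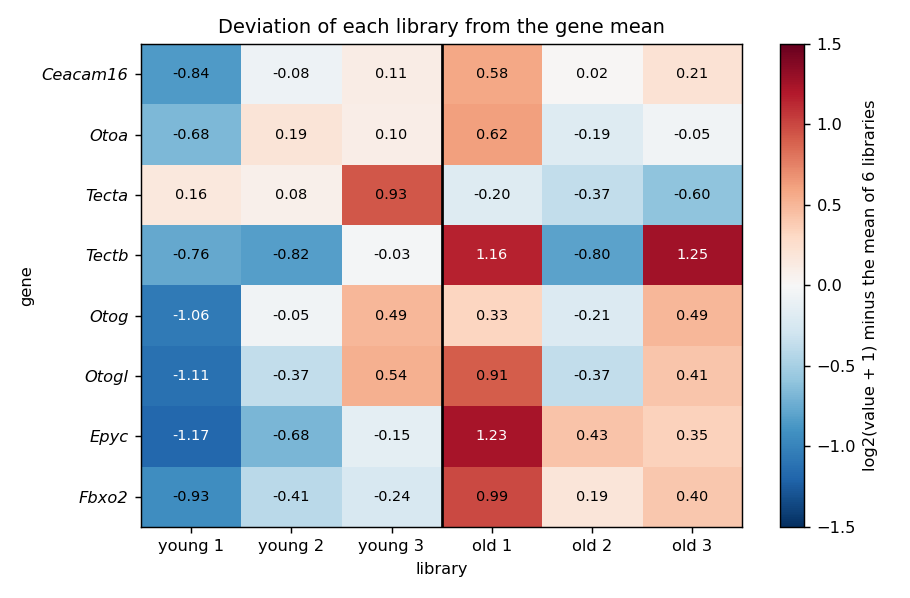
Deviation of log2(value + 1) in each library (columns) from the mean of the 6 libraries for each gene (rows), in log2 units; red is above and blue below the mean. Young 1 is blue in all genes but Tecta (0.16), and old 1 is red in all genes but Tecta (-0.20).

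Ratios of genes within a library do not depend on the scaling of that library, but the length and GC trends were not removed from them. Tecta over Tectb was 1.08, 1.07 and 1.11 across young 1 to 3 and 0.222, 0.771 and 0.157 across old 1 to 3. The young libraries thus held the 2 tectorin transcripts in nearly the same proportion, and each old library held less Tecta for its Tectb (log2 difference of the ratio -1.86, exact permutation p = 0.1, the smallest possible, and 0.264 adjusted over the 29 ratios computed). Otoa over Epyc was 0.788, 1.02 and 0.665 across young libraries and 0.364, 0.364 and 0.425 across old libraries, and Otoa over Fbxo2 was 0.333, 0.423 and 0.355 against 0.215, 0.215 and 0.205. Ceacam16 over Fbxo2 was 1.02, 1.22 and 1.23 across young libraries and 0.724, 0.859 and 0.848 in old libraries. In these 3 ratios too the groups did not overlap (exact permutation p = 0.1 and 0.264 adjusted for each). Of the 28 pairs among the genes described here, 11 had groups that did not overlap, and all 11 held Tecta, Epyc or Fbxo2. Each of these 3 genes already separated the groups by itself. Such a ratio is therefore not independent of that gene's own difference. How often ratios of other gene pairs separate the groups was not tested. Epyc over Fbxo2 overlapped, with 0.423, 0.414 and 0.533 across young libraries and 0.591, 0.592 and 0.483 in old libraries, and so did Otog over Otogl, with 4.05, 4.87 and 3.78 against 2.60, 4.35 and 4.12. The exact permutation p was 0.2 for the first and 0.6 for the second.

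**Figure D4:**
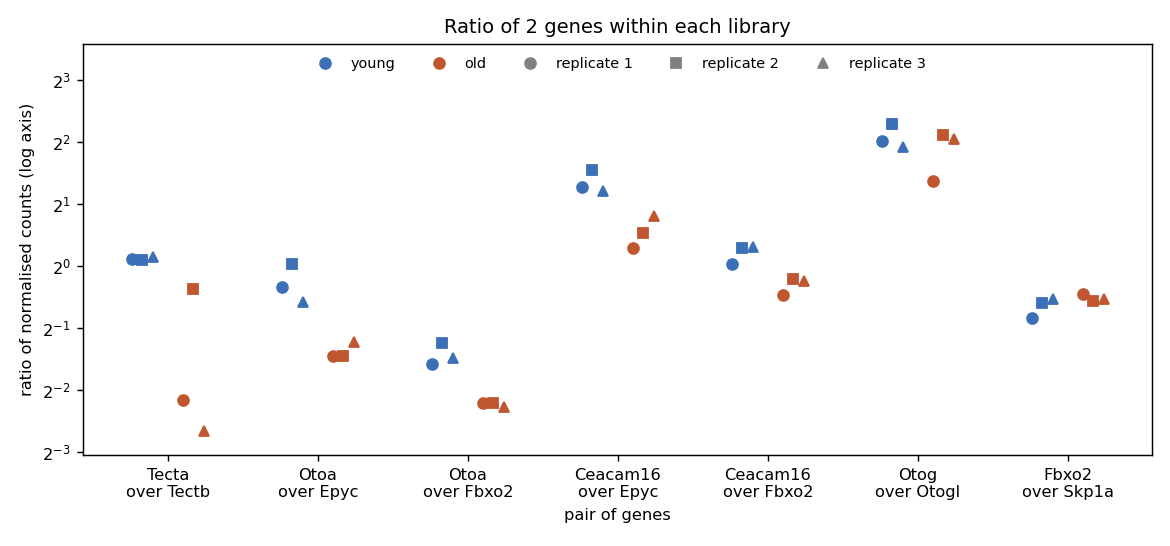
Ratio of the normalised counts of 2 genes in each library (vertical axis, log scale) for 7 pairs, with young libraries in blue, old ones in orange and the replicate number as symbol. Tecta over Tectb lies between 1.07 and 1.11 in young libraries and between 0.157 and 0.771 in old ones, while Fbxo2 over Skp1a overlaps.

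Genes that work with these proteins were taken from lists. Of 8 collagen genes of the tectorial membrane 6 fell and none rose (median log2 difference -0.59, against 0.00 over all tested genes, of which 18.7% fell). Col2a1, the chain of type II collagen, went from 4490, 4013 and 4417 in young 1, 2 and 3 to 1083, 1681 and 949 in old 1, 2 and 3 (log2 difference -1.84, limma adjusted p = 0.00427). Col5a2 fell by 1.02 and Col11a1 by 0.75 on the log2 scale (limma adjusted p = 0.00399 and 0.0140), while Col9a1 (-0.10) and Col9a3 (-0.08) did not pass. The count of falls was 2 without young 2, 3 without young 3 and 2 after removal of the length and GC trends. These collagens are also made in cartilage and bone. Of 8 osteoblast and osteocyte genes 4 fell as well, with a summed normalised count of 4668 to 5968 in young and 2397 to 4020 in old libraries. That count of falls was 2 without young 2 and 7 without old 2, and the part of bone in the collagen values was not tested.

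Among other otic matrix, otolith and cupula genes 8 were tested, of which 2 fell and none rose (median 0.01). Otop1, a proton channel needed for otoconia, fell by 0.45 on the log2 scale (limma adjusted p = 0.0159). Nox3, an oxidase of the inner ear, stood at 35.7, 23.6 and 74.9 in young 1, 2 and 3 and at 17.97, 0 and 1.93 in old 1, 2 and 3 (limma adjusted p = 0.0410). Neither passed without young 1 or without young 3, and edgeR called 1 fall in the list. Coch (cochlin) and Otos (otospiralin), secreted products of fibrocytes, were very abundant, at 249097 to 386695 and 44475 to 80656 in young libraries and 256561 to 435344 and 69784 to 102291 in old ones, and did not pass (log2 difference 0.09 and 0.43). Zpld1, a cupula gene, was not analysed here, and Oc90 was too low for the test.

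Of 7 partners and paralogs of Fbxo2 in the ubiquitin ligase family 4 rose and none fell (median 0.23, with 15.9% of all tested genes higher). Skp1a, which binds Fbxo2, stood at 20178, 24387 and 26440 in young 1, 2 and 3 and at 58394, 36173 and 41153 in old 1, 2 and 3 (log2 difference 0.91, limma adjusted p = 0.0127). The groups did not overlap, and old 1 was the highest, as for Fbxo2. Fbxo2 over Skp1a was 0.559, 0.663 and 0.688 across young libraries and 0.733, 0.675 and 0.688 in old libraries, with an exact permutation p of 0.2. Fbxo17, a sugar-binding paralog, stood at 81.6 to 91.4 across the young libraries and at 149 to 302 across the old ones (log2 difference 1.37, limma adjusted p = 0.00982). Fbxo6, another paralog, rose by a log2 difference of 0.45 and the RING subunit gene Rbx1 by 0.23 (limma adjusted p = 0.0154 and 0.0412). The scaffold gene Cul1 (0.08), Fbxo44 (0.20), which lies beside Fbxo2, and Fbxo27 (0.11) did not pass. After removal of the length and GC trends 2 of the 7 rose.

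Markers of the cells that a dissected nerve could hold were read from the same fit, and their part in the values of the 8 genes was not tested. Of 11 general epithelium genes 10 rose, with a median log2 difference of 1.32 (6 rose without young 2), and Cdh1 (-0.01) did not pass. Krt18, a keratin of simple epithelia, went from 136, 230 and 231 across young libraries to 783, 836 and 707 in old libraries, and Krt8 (log2 difference 2.02) and Cldn7 (1.33) rose as well. The summed count of the list was 11063 to 13909 in young and 16359 to 20690 in old libraries. All 6 genes of Reissner's membrane and the epithelial sodium channel rose, among them Vmo1 (2.60), Slc26a7 (1.66) and Scnn1a (2.23), and their sum was 3759 to 8951 in young and 21749 to 38297 in old libraries. Of 10 supporting cell genes of the organ of Corti 4 rose (S100a1 by 1.32, Fgfr3 by 1.28, Hey2 by 0.40 and Emx2 by 1.78) and 3 fell (log2 difference -1.59 for Hes5, -1.14 for Prox1 and -0.39 for Sox2), with a sum of 41994 to 53385 in young and 57125 to 78483 in old libraries. The falls numbered 1 without young 2.

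No hair cell gene passed in limma among 13 tested (0 also in edgeR, DESeq2 and at an unadjusted limma p under 0.05), and Atoh1 was not analysed here. Their summed count was 3677, 4541 and 8697 across young 1 to 3 and 5620, 3198 and 7379 across old 1 to 3. It was highest in young 3 and old 3, the libraries that were also highest of their group in Otog and Tectb. Of 9 genes of the stria vascularis 3 rose (Dct, Lmx1a and Kcnq1) and Esrrb fell (median log2 difference of the list 1.39). That fall passed with all libraries and, of the 6 left out in turn, without old 3 alone. Tyr (2.44) and Kcne1 (1.52), both at low counts, did not pass. The list summed to 30912 to 36051 in young and 31982 to 38479 in old libraries. Most of that sum was Slc12a2 (-0.0002), Kcnj10 (0.05) and Cldn11 (-0.01), which did not pass. Of 6 fibrocyte genes of limbus and ligament none passed in limma or edgeR, 2 passed in DESeq2 and 1 had an unadjusted limma p under 0.05; the sums were 305004 to 483159 and 339824 to 557443. Neuron markers of the labelled tissue were high in every library. The 9 spiral ganglion neuron genes summed to 469444 to 480643 in young and 308372 to 436186 in old libraries (4 fell, and 2 without young 2 or young 3; Slc17a7, Nefm and Rbfox3 had the smallest p). Among Schwann cell genes, the transcription factor gene Egr2 rose by a log2 difference of 0.71 (limma adjusted p = 0.00522), and the tight junction gene Cldn19 fell by 0.83 on the log2 scale (limma adjusted p = 0.00439).

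**Figure D5:**
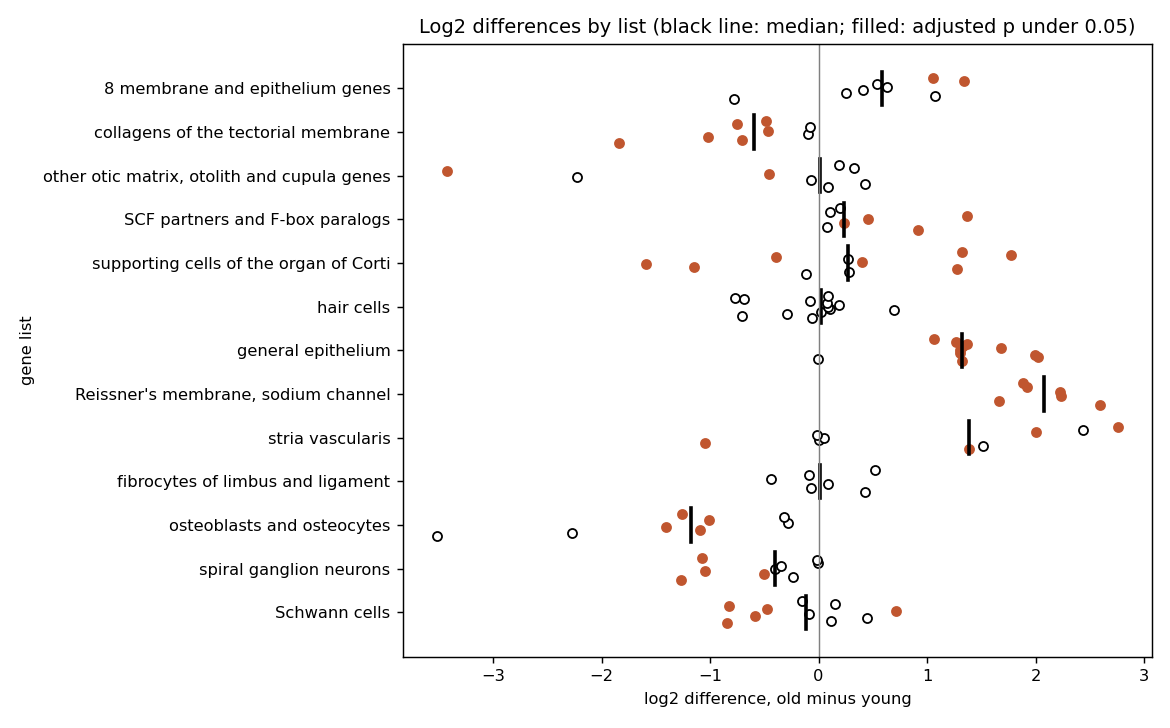
Log2 difference, old minus young (horizontal axis, log2 units), of every tested gene of each list (rows), filled where the adjusted p is under 0.05, with the median of each list as a black line. The medians are 0.59 for the 8 genes, 1.32 for general epithelium, 0.02 for hair cells and -0.59 for collagens of the tectorial membrane.

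The 8 genes were also set against the summed general epithelium count of the same library. Epyc divided by that sum was 0.431, 0.512 and 0.697 across young 1 to 3 and 1.22, 0.828 and 0.835 across old 1 to 3. For Fbxo2 the ratio was 1.02, 1.23 and 1.31 across young libraries and 2.07, 1.40 and 1.73 in old libraries. Both ratios were above the young range in every old library, as the 2 genes themselves were (exact permutation p = 0.1, the smallest possible, and 0.267 adjusted over the 16 ratios to list sums). For Ceacam16 the ratio was 1.04, 1.502 and 1.61 across the young libraries and 1.498, 1.20 and 1.47 across the old ones, and the groups overlapped (log2 difference 0.02, exact permutation p = 1). Cdh1, which did not pass, held 8715 to 9468 of this sum in the young libraries and 8374 to 9973 in the old ones. Cdh1 was thus the gene with the largest share of the sum in every library, while the rise of the sum came from other genes of the list. With this flat part in it, the sum rose by a smaller factor than the genes that rose. The median log2 difference of the list was 1.32, against 1.34 for Epyc and 1.05 for Fbxo2. Whether these 2 genes rose beyond the epithelium genes was not tested. Tecta over the epithelium sum was lower in every old library than in every young one (log2 difference -1.30). That order and its exact permutation p of 0.1 were fixed beforehand. In every old library Tecta already lay below the young range and the sum above it, so the ratio adds no separate result.

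The genes whose profile over the 6 libraries lay closest to each of the 8 were found among 13261 tested genes with a mean of at least 100, by the root-mean-square difference of mean-centred log2(value + 1). Closest to Epyc was Krt19, another keratin, at 0.03 log2 units, followed by Tmem171 and Slc44a3 at 0.10 and 0.11. Krt19 stood at 220, 322 and 471 in young 1, 2 and 3 and at 1157, 678 and 640 in old 1, 2 and 3. For Fbxo2 the nearest were Tmod1, an actin-capping protein, at 0.05, Crb3, a polarity protein of epithelia, at 0.06 and Ctf1 at 0.07. Ceacam16 was nearest to Trim14 at 0.06, Prss36 at 0.08 and Proser2 at 0.09. Prss36 had normalised counts of 4161, 6307 and 7915 in young 1, 2 and 3 and of 11881, 7348 and 8526 in old 1, 2 and 3.

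The other 5 genes had less close neighbours. Otoa was nearest to Irx3 at 0.11, Rflnb at 0.13 and Gm19345 at 0.13, the last being the gene that overlaps Ceacam16 on the other strand. Otog was nearest to Rbm24 at 0.16, Fcrlb at 0.21 and Ttll10 at 0.25, and Otogl to Cabp2 at 0.23, Chmp4c at 0.24 and 5730559C18Rik at 0.25. Tecta was nearest to 1500004A13Rik at 0.17, Fbn2 at 0.18 and Phlda1 at 0.20. Tectb had the most distant neighbours, Klhl14 at 0.39, Mlph at 0.40 and the globin gene Hba-a2 at 0.41. Among the 8 themselves the closest were Ceacam16 and Otoa at 0.19, then Epyc and Fbxo2 at 0.21, and Tecta stood farthest from the rest, at 0.63 from Otoa. The likeness describes these 6 libraries only.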

How the data were processed

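RNA was taken from auditory nerve of 3 young and 3 old mice, 1 mouse a library. The submitters' processing notes name mm10, TopHat2, Partek and DESeq2; no source used here gives the settings, the annotation or the read filters. The deposited sample columns are a signal: the values show that the authors divided read counts by 1 size factor per library. Whole reads were recovered for 99.93% to 99.97% of values (tolerance 0.1), 34587979 to 40841478 per library. Per the file headers the deposited table also holds p-values, an FDR and a signed fold score that the authors computed.

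The main test was limma (3.58.1) with trended variances on log2(value + 1), over genes that edgeR's filterByExpr kept (minimum count 10, total 15), with adjustment over all of them. A count test by edgeR (4.0.16) on the recovered reads passed 5414 genes, against 5493 by limma. DESeq2 (1.42.0), other scalings, filters and pseudocounts, left-out libraries and the removal of length and GC trends (mgcv 1.9.3; lengths for 93.8% of tested genes from GENCODE M21) were alternatives. Of these steps only the limma fit was tested on simulated counts. Motifs were searched in RefSeq promoters. Named genes were the 8, for each the 3 nearest profiles, and in each list up to 3 of the smallest p past the threshold; any other gene was picked after seeing its values. The 8 genes and the lists were chosen with earlier results of these data known. The summed Schwann cell list is not reported here.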

Additional observations from a re-analysis of the deposited data

How the results depend on the processing

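The 2 rises (Epyc and Fbxo2) were counted again with other pseudocounts (0.5 and 8), filters, scalings and edgeR, with 2 rises each time, and with DESeq2 and in the authors' deposited table, with 3, Tectb being added. They numbered 1 with the length and GC trends removed and 0 to 3 with 1 library left out, the 0 being without young 2. Of the 20 alternatives Epyc passed in 15 (log2 difference 0.97 to 1.60) and Fbxo2 in 17 (0.82 to 1.22), and neither changed direction. Falls numbered 0 in limma with every library and with 1 left out, and 1 (Tecta) with DESeq2 and in the authors' deposited table. Otoa and Otog had the opposite sign in 1 alternative each, without young 1, at -0.02. All genes called numbered 5493 in the main test, 3408 with the length and GC trends removed, 1776 without young 1 and old 2 together and 2589 to 6117 with 1 library left out (2589 without young 2, 3077 without young 3, 3565 without young 1). With upper-quartile scaling 3439 were higher and 2338 lower, against 2524 and 2969, and the median of all tested genes was 0.08. The lists held 52 called genes, 35 to 50 with 1 library left out and 32 without young 1 and old 2, where partners of Fbxo2 rose in 1 case (4 in the main test) and neuron and supporting cell genes fell in 0 (4 and 3).

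With the replicate number as a block, 0 of the 8 genes rose (adjusted p = 0.0595 for Epyc and 0.0617 for Fbxo2) and 2711 genes passed. Partners of Fbxo2 then rose in 1 case and other otic matrix genes fell in 0. With the block and the trends removed 0 of the 8 genes rose, 828 genes passed and 24 did in the lists (general epithelium 4, against 10). Pairing by number was not seen in the correlations of the deviations from group means. They were -0.29, -0.41 and -0.05 for numbers 1, 2 and 3, and no library correlated best with its own number. The deviations of 3 libraries from their own mean depend on each other. These correlations therefore cannot exclude that libraries of the same number shared a step of handling. The genes with the fewest reads were Tecta and Tectb, with normalised counts down to 87.0 and 131. The limma p-values set each difference against the spread between 3 mice of each age, moderated by a trend over all tested genes.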
